A study of Drosophila melanogaster with 2 samples.

Results

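Among the binding sites of CG7786-eGFP on the chromatin of Drosophila melanogaster embryos, 436 of 4045 lay in intergenic sequence away from promoters, or 10.8%. They were chosen from the authors' reproducible peak list, which the authors derived by the irreproducible discovery rate (IDR) procedure. A peak was kept when its summit lay outside every annotated gene body, transposable elements not counted as genes, and more than 500 bp from any transcription start site (TSS). Of the other peaks, 2237 (55.3%) had a summit within 500 bp of a TSS and 1372 (33.9%) lay in gene bodies farther from a TSS. Among the peaks of that list, the choice used positions only, not the strength of the peaks.

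CG7786 has no full name. From its sequence it is taken to encode a PAR-type member of the basic leucine zipper (bZIP) family of transcription factors. The study mapped it by chromatin immunoprecipitation and sequencing in whole embryos aged 0 to 24 h, male and female together, from a line that stably expresses CG7786 with enhanced green fluorescent protein at its C terminus. Both libraries, biological replicates 2 and 3, carry this transgene and form 1 group, with no second condition. The labels name GFP as the antibody's target in one field and CG7786 in another. Chromatin was sonicated to fragments of 200 to 800 bp. The embryos hold all tissues and stages at once, so a site bound strongly in few cells and one bound weakly in many cannot be told apart. Sequencing depth is unknown, so no interval that rests on it was computed.

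Intergenic sequence in flies holds many enhancers, short stretches of DNA that transcription factors bind and that raise the transcription of a gene nearby or many kilobases away. Genes for patterning, signalling and cell identity are often surrounded by several such elements. Proteins of the PAR bZIP group are known in other animals for binding a short palindrome as dimers, while GAGA factor, Zelda and GATA factors are among the sequence-specific proteins that occupy fly enhancers.

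The sequences below show what the strongest intergenic peaks look like and the 10-letter word whose share of intergenic windows most exceeded that of the surrounding sequence. All sequences are from the Release 6 genome of RefSeq, build dm6, and members are numbered by falling signal. The windows of the strongest ones cover 200 bp centred on the summit on the + strand, with capitals on each GAGAG or CTCTC, the core of the GAGA element.
member 2, nearest to tara, chr3R:16222387-16222586, + strand: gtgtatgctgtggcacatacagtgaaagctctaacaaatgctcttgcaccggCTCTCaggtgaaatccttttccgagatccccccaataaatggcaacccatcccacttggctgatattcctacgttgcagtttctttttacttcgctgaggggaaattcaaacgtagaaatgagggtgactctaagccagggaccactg
member 4, nearest to tara, chr3R:16224424-16224623, + strand: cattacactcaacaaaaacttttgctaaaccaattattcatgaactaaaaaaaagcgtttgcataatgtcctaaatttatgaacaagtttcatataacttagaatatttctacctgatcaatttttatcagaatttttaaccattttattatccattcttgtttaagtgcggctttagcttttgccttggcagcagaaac
member 5, nearest to chinmo, chr2L:1638764-1638963, + strand: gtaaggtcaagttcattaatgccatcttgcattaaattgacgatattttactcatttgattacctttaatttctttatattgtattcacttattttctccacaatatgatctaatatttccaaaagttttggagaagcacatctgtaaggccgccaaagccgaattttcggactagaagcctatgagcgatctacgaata
The next group shows 40 bp around a 10-letter word, ACTGAGAGAA in capitals, in the strand on which it reads this way. They are 10 of the 20 intergenic peaks that hold it.
member 20, nearest to CheA75a, chr3L:18236085-18236124, - strand: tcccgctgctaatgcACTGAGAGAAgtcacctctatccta
member 34, nearest to noc, chr2L:14502814-14502853, - strand: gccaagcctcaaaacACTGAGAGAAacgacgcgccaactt
member 64, nearest to GCS2alpha, chrX:21593985-21594024, + strand: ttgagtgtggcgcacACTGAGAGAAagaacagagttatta
member 125, nearest to rux, chrX:6031816-6031855, + strand: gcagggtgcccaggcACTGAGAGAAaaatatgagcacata
member 135, nearest to ems, chr3R:13914976-13915015, - strand: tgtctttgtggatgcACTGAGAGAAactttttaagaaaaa
member 150, nearest to odd, chr2L:3594117-3594156, + strand: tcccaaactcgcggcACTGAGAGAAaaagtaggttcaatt
member 160, nearest to CG11726, chr3L:11380344-11380383, - strand: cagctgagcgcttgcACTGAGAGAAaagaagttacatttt
member 227, nearest to Hr38, chr2L:20715087-20715126, - strand: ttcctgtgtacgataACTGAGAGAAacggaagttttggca
member 273, nearest to CG2772, chr2L:3440407-3440446, + strand: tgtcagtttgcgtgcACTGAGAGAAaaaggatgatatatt
member 432, nearest to Dr, chr3R:29567092-29567131, + strand: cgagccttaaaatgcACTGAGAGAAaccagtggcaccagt
The last group shows matches to the PAR bZIP element in capitals, on the + strand, with 16 bp on each side.
member 126, nearest to Doc2, chr3L:9025884-9025923, + strand: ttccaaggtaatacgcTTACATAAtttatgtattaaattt
member 166, nearest to CG43098, chr3L:3665449-3665488, + strand: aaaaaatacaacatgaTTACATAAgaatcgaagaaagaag
member 266, nearest to CG7320, chr3L:18215858-18215897, + strand: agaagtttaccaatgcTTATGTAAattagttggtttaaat

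The 3 long windows differ in composition, with 47.5% and 29.0% G and C at tara and 33.5% at chinmo. The first tara window holds 1 GAGA core, and the windows of the second tara peak and of chinmo hold none. In the 40 bp windows the word stands in unlike surroundings, yet its edges repeat: over all 20 peaks the base before it was C in 18 and the base after it was A in 19. The preceding pair of bases was GC in 11 and AC in 6. None of the 20 summits lay in an annotated transposable element. None of their 200 bp summit windows held a 31-base stretch found elsewhere on arms 2L, 2R, 3L, 3R and X or chromosome 4. The rest of the genome was not searched. The 20 peaks had 20 different nearest genes.

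The signal value of a peak is the authors' own score and serves here only to rank peaks within a list. The intergenic peaks ran from 79.6 to 1437 with a median of 119.3 and quartiles of 94.4 and 173.7. The median was 136.2 for TSS-proximal peaks and 123.5 for peaks in gene bodies, so the ratio of the intergenic to the TSS-proximal median was 0.876. It was 0.950 among the strongest 4045 entries of replicate 2 and 0.846 among those of replicate 3, below 1 in both. Of the intergenic peaks, 138 had a value below 100 and 28 a value above 300. They were 102 to 404 bp wide, and 363 (83.3%) were exactly 404 bp. The 5 weakest had values of 79.6 to 80.1.

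The strongest intergenic peak, at chr2R:13035152-13035525 (dm6), lay in the gap between the Polycomb group relative Su(z)2 and CG13323, 11914 bp from the nearest protein-coding TSS. Its signal was 622.0 in replicate 2 and 820.9 in replicate 3, at ranks 10 and 20 of the lists. Next came a peak 3164 bp upstream of tara, a gene of the trithorax group with a role in cell cycle progression, at chr3R:16222310-16222665. It had a signal of 1060, with 396.4 in replicate 2 and 663.3 in replicate 3. A further peak between that one and tara, 1127 bp upstream of the gene at chr3R:16224353-16224681, had a signal of 594.8, with 241.6 and 356.0 in the replicates. The pair lie on either side of the non-coding gene lncRNA:CR45643, so tara has 2 of the 4 strongest intergenic peaks.

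CycB, which encodes the mitotic cyclin B, was the nearest gene of the third peak at chr2R:22802787-22803131. That peak had a signal of 922.8, with 382.5 in replicate 2 and 553.4 in replicate 3. It lay 3333 bp downstream of the CycB TSS, in a gap of 1340 bp between the convergent genes blw and CycB. The fifth, at chr2L:1638767-1638999, was 12394 bp from chinmo, a zinc finger gene that sets temporal identity in the nervous system, with a signal of 561.0 (204.9 and 354.2 in the replicates). Places 6 to 10 among the intergenic peaks went to peaks nearest to CG3149 (522.8), RasGAP1 (494.0), CG7484 (481.6), stck (463.2) and CG43131 (458.6). RasGAP1 encodes a Ras GTPase activating protein and stck a LIM domain protein at integrin adhesions. Places 11 to 20 were nearest to CG6163 (441.0), CG12643 (412.8), CG31668 (401.2), sp3 (394.2), Atf3 (367.5), slp2 (362.9), CG14762 (358.7), CG43245 (348.6), CG5953 (343.2) and CheA75a (332.4). Atf3 is itself a bZIP factor gene, and slp2 a forkhead factor gene of the segmentation pathway. All 20 ranked 500 or better in both replicates, and they take the upper right of the replicate plot. They were picked by the signal of both replicates pooled, so this follows in part from that choice.

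**Figure D1:**
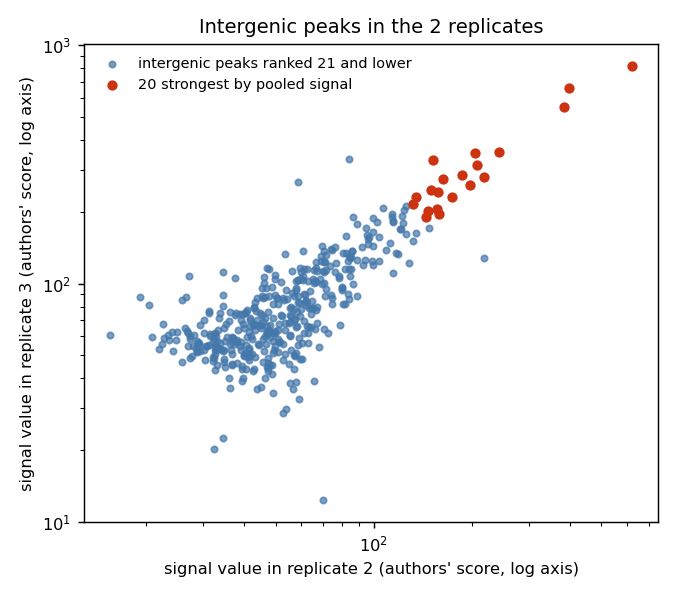
Signal value of each intergenic peak in replicate 2 (horizontal) and replicate 3 (vertical), both the authors' score on log axes, for the 434 peaks found in both lists, with the 20 strongest by pooled signal in red. The red points are at the upper right and the cloud of weaker peaks widens toward low values, and a few points lie far from the rest, among them nrv1 and CG9743 (332.8 and 266.4 in replicate 3), whose replicate 3 entry is also the nearest of another peak.

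The IDR list was drawn from entries that recur in the relaxed lists, so finding its peaks there again describes that choice. Replicate 3 held an entry within 200 bp of 436 of 436 and replicate 2 of 434. The 2 not found in replicate 2 were those nearest to Acsf2 (80.87 in the pool, 72.51 in replicate 3) and Dr, a homeobox gene (80.11, and 68.83 in replicate 3), both at the bottom of the list. Spearman's rho of the signal values between the replicates was 0.708 across the intergenic peaks, 0.762 for TSS-proximal peaks and 0.699 for peaks in gene bodies. These are correlations across peaks of the same libraries and carry no p-value. The summits of the replicates lay 20 bp apart in the median, and 349 pairs (80.4%) were within 50 bp.

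Of the intergenic peaks, 321 (73.6%) were among the 4045 strongest entries of both replicates, against 77.5% of all IDR peaks, 80.4% of TSS-proximal peaks and 73.8% of peaks in gene bodies. A further 77 were among the strongest of replicate 3 alone and 35 of replicate 2 alone, and 3 of neither. Where peaks lie close together, 1 replicate entry can be the nearest of more than 1 peak. This was so for 12 intergenic peaks, and without them rho was 0.704 over 422 peaks. Of the 5 peaks whose ranks differed most, that at CG5151 (chr3L:16165837-16166240) is such a case: its replicate 2 entry, 69.84, is also the nearest of a stronger intergenic peak 207 bp away, so its values of 69.84 and 12.30 do not compare 1 site. The other 4 had entries of their own and all ranked higher in replicate 3. The peak at CG33467 (chr2R:15054204-15054607) had 15.52 in replicate 2 and 60.66 in replicate 3. For the peaks nearest to Treh, Sumo and CG13577 the values were 19.17 against 87.45, 20.39 against 81.16, and 20.80 against 59.93.

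The intergenic class took a growing share of the weaker entries. In 5 blocks of 809 IDR peaks each, from the strongest to the weakest, it held 57 (7.05%), 90 (11.1%), 84 (10.4%), 100 (12.4%) and 105 (13.0%) peaks. The same direction continued below the list. In the pooled relaxed list the intergenic share was 10.8% of ranks 1 to 4045, 13.1% of the next 5000, and 16.7% of ranks 19046 to 24045. Replicate 2 went from 10.2% to 19.9% at the end of its 30000 entries, and replicate 3 from 11.0% to 19.5%. Thus each of the 3 lists showed a higher intergenic share in its last entries than in its first.

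**Figure D2:**
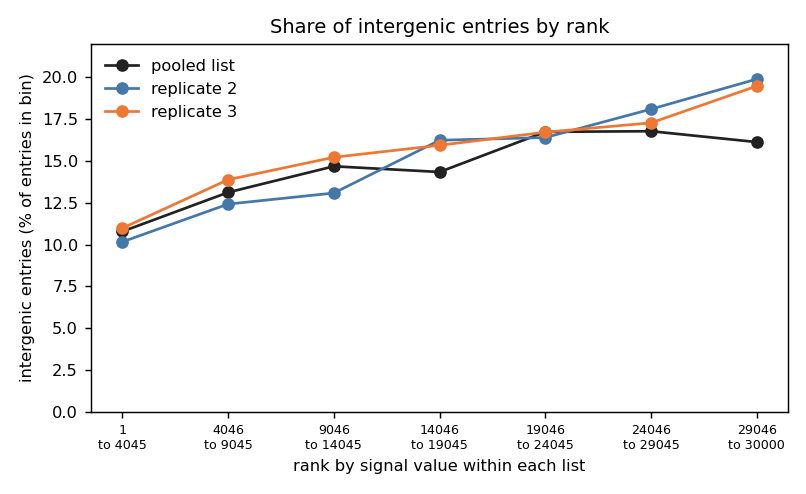
Share of intergenic entries (percent of entries in each bin, vertical) by rank of signal value (horizontal) in the pooled list, replicate 2 and replicate 3. All 3 lines start near 10 to 11% and end above 16%.

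The intergenic peaks were denser near TSSs and in short gaps between genes. The sequence that meets the rule amounts to 36.46 Mb, which gives 11.96 peaks per Mb. Sequence less than 1 kb from a protein-coding TSS held 70 peaks, or 35.0 per Mb. The density was 22 per Mb (73 peaks) from 1 to 2 kb, 15.6 (114) from 2 to 5 kb and 11.0 (77) from 5 to 10 kb. From 10 to 20 kb it was 12.1 per Mb (79 peaks), and beyond 20 kb it was 2.24 (23). By length of the gap between neighbouring genes, it went from 38.9 per Mb in gaps up to 2 kb (57 peaks) to 9.02 in gaps of 20 to 50 kb (81). In gaps over 50 kb, it was 0.976 (8 peaks). The sequence next to the centromeres was not separated here.

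**Figure D3:**
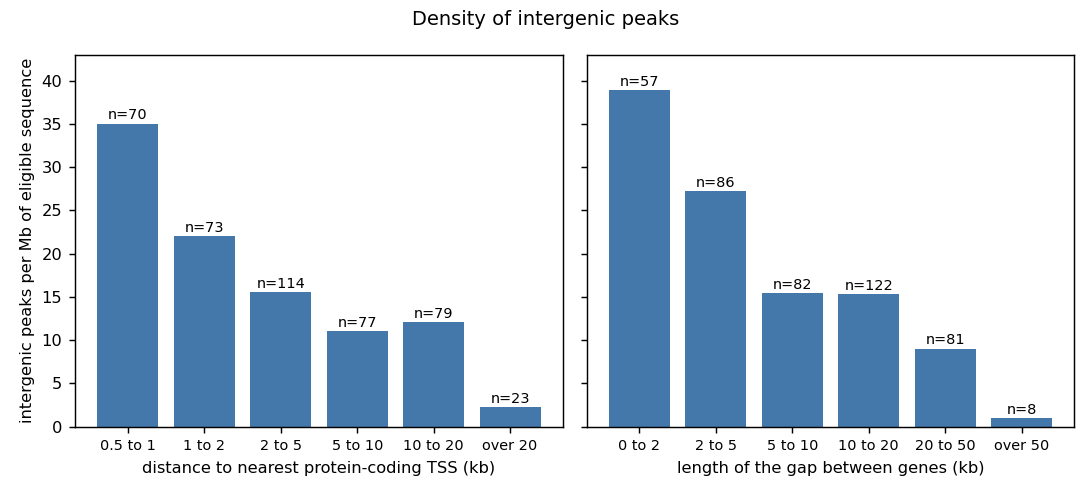
Intergenic peaks per Mb of the sequence that meets the rule, by distance of the sequence from the nearest protein-coding TSS (left) and by length of the gap between genes (right); numbers above the bars count peaks. Density is 35.0 per Mb within 1 kb of a coding TSS and 2.24 beyond 20 kb, and falls from 38.9 to 0.976 per Mb as gaps lengthen.

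The median distance to a protein-coding TSS was 3956 bp, and to any TSS 2580 bp. The nearest TSS belonged to a non-coding gene for 139 peaks, and 225 lay in a gap with a non-coding gene on at least 1 side. By the rule's limit, the closest kept were at 502 bp (nearest to nerfin-1, a zinc finger gene of neural differentiation, 89.8) and 506 bp (CrebA, 117.1), and the closest left out were at 492 bp (Npc2b, 86.8) and 488 bp (CG10479, 267.1). Gaps between divergent genes, which start away from each other, held 120 peaks (27.5%) on 20.3% of the sequence. Tandem gaps held 221 (50.7% on 50.5%) and convergent gaps 95 (21.8% on 25.5%). The densities were 16.2, 11.99 and 10.2 peaks per Mb. On the upstream side of the nearest coding TSS lay 280 peaks at 13.0 per Mb and on its downstream side 156 at 10.4 per Mb. In annotated transposable elements lay 3 peaks (0.688%), and these make up 10.8% of the sequence that meets the rule. Of TSS-proximal peaks 0.224% lay in such elements, and of peaks in gene bodies 0.219%. The share of the elements in the sequence of those classes was not computed. Whether reads can be placed in such repeated sequence was not tested.

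Chromosome arms differed. The intergenic share of an arm's peaks was 15.2% on 2L (117 peaks) and 15.2% on 3L (120), against 7.85% on 2R (57), 7.89% on 3R (75) and 7.83% on X (62). On chromosome 4, 5 of 18 peaks were intergenic (27.8%), at 20.4 per Mb of the sequence that meets the rule. Replicate 2 gave 14.9, 15.2, 6.65, 7.48 and 6.44% for 2L, 3L, 2R, 3R and X in its 4045 strongest entries, and replicate 3 gave 16.2, 14.2, 8.35, 8.30 and 8.01%. The lowest of the values on 2L and 3L, 14.2%, exceeded the highest on the other 3 large arms, 8.35%. Per Mb of the sequence that meets the rule, the density was 17.4 on 2L, 13.2 on 3L, 11.7 on X, 9.78 on 3R and 7.66 on 2R. These values include long stretches at arm ends with few or no peaks of any class, 3.486 Mb on 2R and 2.717 Mb on 3L. Over the 2 Mb stretches with at least 10 IDR peaks of any class, the density was 20.6 on 2L, 18.9 on 3L, 14.5 on X, 14.4 on 2R and 11.5 on 3R, and with at least 20 IDR peaks 3L had 21.7 while the other 4 arms kept these values. The order of 2R and 3R therefore turns with the sequence counted, and among the 5 large arms 2L and 3L were highest either way. These limits were chosen after the data were seen. In the pooled entries below the IDR list, whose intergenic shares are higher, the order was similar (17.7 and 19.7% against 12.6, 14.0 and 11.0% on 2R, 3R and X). With protein-coding genes alone the shares were 19.0 and 17.2% against 11.0, 9.78 and 11.2%. No replicate group exists to test the arms against, so this is a description. The most crowded 2 Mb stretch was 10 to 12 Mb of 3L, with 30 peaks or 45.5 per Mb.

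**Figure D4:**
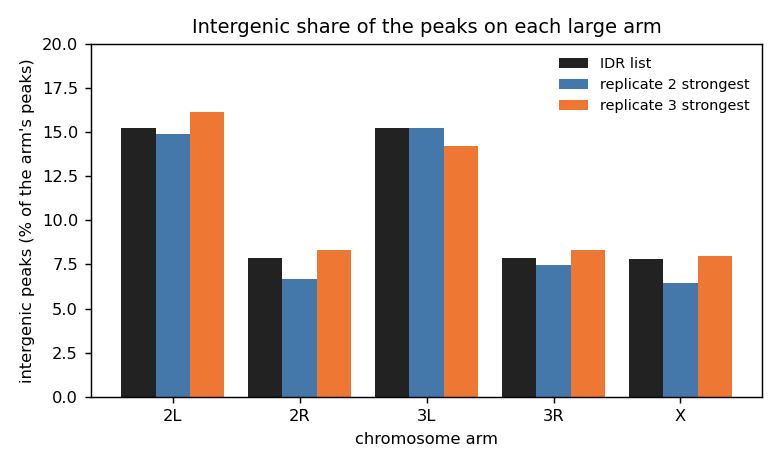
Intergenic peaks as a percentage of all peaks on each of the 5 large chromosome arms, in the IDR list and in the 4045 strongest entries of replicates 2 and 3. In all 3 lists 2L and 3L stand at 14.2 to 16.2% and the other arms at 6.44 to 8.35%.

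Most intergenic peaks were alone in their gap, and a few gaps held several. Of 6516 gaps with sequence that meets the rule, 336 held an intergenic peak: 270 held 1, 43 held 2 and 23 held 3 or more. The last group took 80 of the peaks. The gap between lncRNA:CR44363 and CG7560 on 3L held 6 peaks over 13655 bp, with signals from 109.2 to 329.7. The gap upstream of chinmo, between its non-coding neighbours, held 5 over 15179 bp, with 166.3, 240.3, 294.5, 561.0 and 270.0 along the arm. The gap of 75047 bp between NijA, which encodes a ninjurin, and CG43245 held 5 from 96.4 to 348.6. The gaps with 4 peaks were those at noc, a zinc finger gene (286.3 at most), between CG13321 and the Polycomb gene Psc (315.7 at most), before CG13898 (224.3 at most) and beside scyl, a growth regulator gene (137.0 at most). The gaps with 3 included those of robo2, of the pair-rule relatives sob and odd, of the Wnt ligand genes Wnt4 and wg, of Rh5 on both sides, of 18w, of sty, of CrebA and of Myc. Of all the intergenic peaks, 53 (12.2%) had another peak of any class within 1 kb, against 18.6% of TSS-proximal peaks and 18.5% of those in gene bodies.

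The genes nearest to the peaks included many regulators of development. Of 13945 protein-coding genes, 345 (2.47%) were the nearest of at least 1 intergenic peak. Among 63 homeodomain and other tissue identity genes it was 15 (23.8%), with a median signal of 109.6 over their 16 peaks against 119.3 over all. Examples are Sox21a (220.7), the LIM homeodomain genes tup (154.1) and Awh (148.3), and tsh (144.8), a zinc finger gene of the trunk. Among 39 segmentation and Hox genes it was 9 (23.1%; 123.0 over 13 peaks), with slp2 (362.9), the Hedgehog receptor gene ptc (197.0), and the head gap genes oc (165.7) and ems (157.0). Among 71 developmental signalling genes it was 13 (18.3%; 118.1 over 17 peaks), with the atypical cadherin gene ds (250.1), the ETS repressor gene aop (211.5), ptc, and ex (155.6), an upstream gene of the Hippo pathway. Among 34 mesoderm and muscle genes it was 6 (17.6%; 116.5 over 7), with the T-box genes mid (283.8) and H15 (109.9), tup, and Act87E (128.2).

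The remaining lists had lower shares. Of 20 bZIP factor genes 2 were nearest to a peak, Atf3 (367.5) and CrebA (135.0 and below), of 47 adhesion, axon guidance and channel genes 4, led by the netrin receptor gene unc-5 (211.5) and robo2 (177.6), and of 36 chromatin genes 2, the Polycomb gene ph-d (283.2) and Su(z)2 (126.2). Neural regulators had 2 of 41, ecdysone and nuclear receptor genes 1 of 24 (Hr38, 116.6), cytoplasmic ribosomal protein genes 2 of 88, chemosensory receptor genes 3 of 179 (Gr93a at 214.3) and cuticle protein genes 2 of 120. None of 73 mitochondrial ribosomal protein genes was nearest, which allows a share of up to 4.11%. The lists also differ in how much intergenic sequence their genes adjoin. The density was 41.9 per Mb for signalling genes, 27.7 for segmentation and Hox genes, 24.3 for mesoderm and muscle genes, 20.8 for tissue identity genes, 35.7 for bZIP genes (3 peaks), 100.2 for chromatin genes (3 peaks on 0.0299 Mb), 17.4 for adhesion genes, 10.2 for cuticle genes, 7.92 for nuclear receptor genes, 6.68 for chemosensory genes, 8.08 for neural regulators and 5.82 for cytoplasmic ribosomal protein genes, against 11.96 over all. Some genes stand in more than 1 list, and the nearest gene need not be the one a site acts on.

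The sequence under the summits was searched for 17 motifs on both strands in windows of 200 bp, and the same was done for 178235 windows that tile all sequence meeting the rule, the peaks' own included. A match is a string of letters, not a site that was shown to be bound. The PAR bZIP element, TTACGTAA or TTATGTAA, was present in 4 of the 436 windows (0.917%) and in 1.70% of tiles. Apart from the 3 shown near Doc2 (163.0), CG43098 (140.9) and CG7320 (108.5), the fourth was near CG13321 (205.5). Among the intergenic entries of the replicates' strongest 4045, it stood in 6 of 411 (1.46%) in replicate 2 and 9 of 444 (2.03%) in replicate 3. In the other classes of IDR peaks it stood in 2.10% of TSS-proximal windows and 2.04% of those in gene bodies. The C/EBP palindrome TTGCGCAA stood in 1 window (0.229%, tiles 0.399%), the AP-1 element TGACTCA in 6 (1.38%, tiles 1.46%) and the CRE TGACGTCA in none, which allows a share of up to 0.688% (tiles 0.303%).

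GAGAG, the GAGA core, stood in 110 windows (25.2%) against 20.7% of tiles, in 25.1% of the replicate 2 windows and 24.5% of those of replicate 3. GATA elements, AGATAA or TGATAA, stood in 27.8% against 21.8%. A run of 8 A stood in 14.2% against 10.6%, the Zelda word CAGGTAG in 1.15% against 0.881% and CGATA, the BEAF core, in 22.5% against 19.9%. The peak windows were poorer in G and C than the tiles, with medians of 37.0% and 41.0%. Motif shares were not compared at equal content of G and C. Peaks in gene bodies held GAGA cores in 26.2%, GATA elements in 28.9%, A runs in 17.1%, the Zelda word in 1.24% and BEAF cores in 21.3%. These shares exceeded the intergenic ones except for BEAF. TSS-proximal peaks held GAGA cores in 21.1% and GATA elements in 24.5%. The Pho core GCCAT stood in 30.5% against 35.3%, the homeodomain core TAATTA in 11.9% against 14.2%, the Scalloped word CATTCC in 9.63% against 9.65%, the CA repeat CACACACA in 2.29% against 3.97% and the Grainyhead word AACCGGTT in 0.229% against 0.123%. Elements of promoters were less frequent than at TSS-proximal peaks. BEAF cores stood in 41.1% of those, the E-box CAGCTG in 14.0% against 5.50% of intergenic windows (tiles 6.89%), and the M1BP word GGTCACACT in 3.62% against 0.459% (tiles 0.0909%).

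The DNA replication-related element TATCGATA, known from fly promoters, stood in 8 intergenic windows (1.83%; tiles 0.445%; TSS-proximal 8.45%), none of them among the 193 that belong to the 2022 strongest IDR peaks. Their ranks differed between the libraries. None of the 8 was among the 4045 strongest of replicate 2, where their signals were 20.4 to 32.2, while all 8 were among those of replicate 3, with 49.1 to 81.2. Of all intergenic peaks, 81.7% were among the strongest of replicate 2 and 91.3% among those of replicate 3. The 8 were weak in the pool, with 79.9 to 103.2, and were not compared with other peaks as weak. The intergenic entries among the strongest of replicate 2 held the element in 1 of 411 windows (0.243%) and those of replicate 3 in 2.03%. The cause was not tested.

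Short words were compared with the tiles in the same way, counting each with its reverse complement. They were ranked by how much their share of the windows exceeded that of the tiles. The excess of the leading words, and the shortfall of the last, therefore follow in part from that choice. The first 6-letter word was AGTGTA, in 99 windows (22.7%) against 7.48% of tiles, then GAGAAA in 28.2% against 14.1%, ACACTG in 20.6% against 7.08%, CACTGA in 20.6% against 7.93% and AAAAAT in 55.3% against 43.02%. The words that fell short most were CAGCCA (6.88% against 13.7%), CTGGCC (2.98% against 9.39%), GGCCAA (8.26% against 14.6%), GGCAAA (12.6% against 18.9%) and CAGGAC (1.38% against 7.51%). AGTGTA stood in 21.9% and 23.6% of the windows of replicates 2 and 3. The other classes of peaks held these words too. AGTGTA stood in 18.2% of peaks in gene bodies and 11.98% of TSS-proximal peaks, GAGAAA in 24.1% and 15.1%, ACACTG in 17.7% and 22.7%, CACTGA in 19.2% and 13.2%, and AAAAAT in 50.8% and 52.97%. The windows were poorer in G and C than the tiles, with medians of 37.0% and 41.0%. Within the range of GC between the quartiles of the peaks, AGTGTA stood in 28.9% of peaks and 8.73% of tiles, GAGAAA in 33.9% and 16.1%, ACACTG in 23.8% and 6.92%, and CACTGA in 22.2% and 7.77%. The difference was smaller there for AAAAAT (57.3% and 51.5%), CAGGAC (0.837% and 4.41%), CTGGCC (2.51% and 5.89%), GGCCAA (8.37% and 11.4%) and CAGCCA (4.603% and 9.96%), and larger for GGCAAA (10.5% and 18.9%).

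Words of 5, 8 and 10 letters were examined after these values were seen, and those of 8 letters are not described here. The leading 5-letter word, CACTG, stood in 229 windows (52.5%) against 27.5% of tiles, in 49.6% of TSS-proximal windows and in 54.3% of those in gene bodies. Its copies were less dense at the summit than on the flanks, though still denser than in tiles: 10.8% of intergenic windows and 7.99% of tiles had a copy within 25 bp of the centre. In all, 15.8% of the copies in intergenic windows lay within 25 bp of the summit, against 25.6% of the copies in tiles, and the plot of words by distance shows a dip at the centre with shoulders near 70 bp on both sides. Peaks in gene bodies had the same dip and TSS-proximal peaks did not, with 16.04% and 26.7% of their copies that near. CACTG and GAGAAA occurred together in 78 windows (17.9%) against 3.95% of tiles. Peaks in gene bodies held both in 15.5% of windows and TSS-proximal peaks in 7.73%. Both words were picked from these windows for exceeding the tiles, so an excess over tiles follows in part from that choice.

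**Figure D5:**
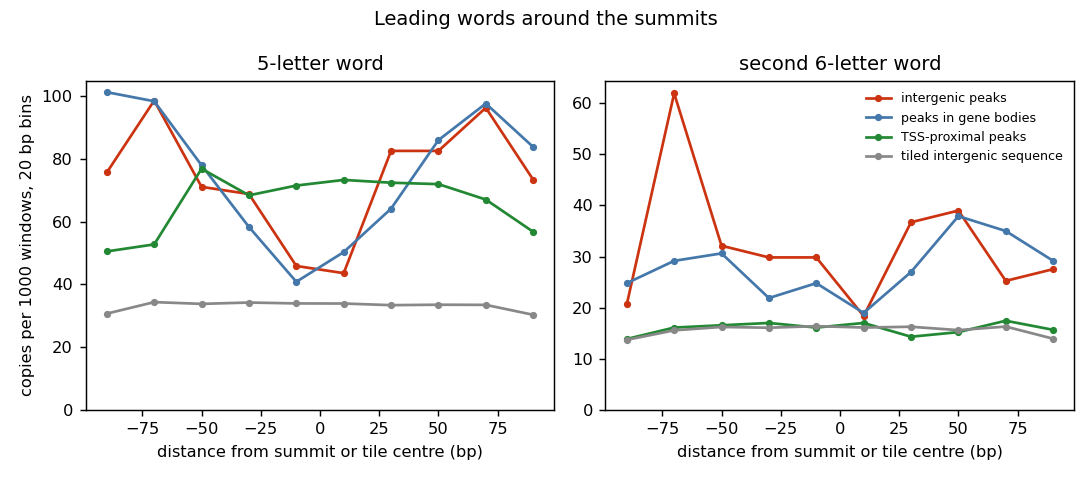
Copies of CACTG (left) and GAGAAA (right) per 1000 windows, in 20 bp bins by distance from the summit (or from the centre of a tile), for intergenic peaks, peaks in gene bodies, TSS-proximal peaks and tiled intergenic sequence. CACTG dips at the summits of intergenic peaks and of peaks in gene bodies, where the bins around 0 bp hold 43.6 to 45.9 copies per 1000 intergenic windows against 33.9 in tiles.

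The 10-letter word that exceeded the tiles most holds CACTG and GAGAAA once the C before it and the A after it are counted. ACTGAGAGAA, or its reverse complement TTCTCTCAGT, stood in 20 intergenic windows (4.59%) against 0.189% of tiles. The word was picked from these windows for that excess, so an excess over any of the tiles below follows in part from the choice. It stood in 4.14% and 5.18% of the windows of replicates 2 and 3, many of which are at the same sites. The word stood in 47 of 1372 peaks in gene bodies (3.43%) and in 11 of 2237 TSS-proximal peaks (0.492%). Near coding TSSs it was rarer: 2 of 143 intergenic peaks within 2 kb held it (1.40%) and 18 of the 293 farther out (6.14%). The peaks with it had a median signal of 131.2, from 80.1 to 332.4, against 119.3 for those without. Of the 20, 16 were among the strongest of both replicates, as were 321 of all 436 intergenic peaks (73.6%). The 20 peaks with the word lay at a median of 10760 bp from a coding TSS. In gaps up to 50 kb the tiles held it at 0.219%, and tiles in the GC range of the peaks at 0.241%, where the peaks had 5.86%. It was present on 2L, 3L, 3R and X in 5.0 to 6.45% of the peaks, and in 0 of 57 peaks on 2R, which allows a share of up to 5.26%. Among the nearest genes of these peaks were noc, the head gap gene ems, the pair-rule gene odd, the nuclear receptor gene Hr38, the homeobox gene Dr and Rca1, a mitotic regulator.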

How the data were processed

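Peak lists were the authors' own, deposited on builds dm6 and dm3, and only those on dm6 were used here. The score column used was the signal value per peak in the deposited lists, the authors' own number with no unit. Per the labels, relaxed lists were called for each replicate and for the pool against 1 control, which was not analysed here. Aligner, caller, IDR threshold and versions: not given in the sources used here. Each relaxed list holds 30000 entries. The 4045 strongest of each replicate were set beside the 4045 IDR peaks, and a summit within 200 bp counted as shared. Genes were those of Ensembl release 115 and sequence that of RefSeq Release 6. Scripts ran on Python 3.11.15 with numpy 2.4.6 and pandas 2.3.3, and were tested on simulated data. Named peaks were the 20 strongest, the 5 whose replicate ranks differed most, those nearest the 500 bp limit, gaps with 3 or more peaks, up to 4 genes of each list and members with a PAR bZIP match; the 5 6-letter words most above and most below tiles were named too. The members, lists and rules were chosen with earlier results of these data known. Of the names in the gene lists, 10 were matched through a synonym and 3 were not matched. No test over samples was possible with 1 group of 2 libraries, and no p-value over peaks was computed. The exact intervals of shares, used only to sort alternative settings, treat peaks as independent units. Where nothing was found, the share allowed is 3 counts over the number of peaks or genes, with no confidence level attached. Neither measures variation between embryo samples.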

Additional observations from a re-analysis of the deposited data

How the results depend on the processing

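With 1 group, the values depend mainly on where the lines are drawn. Of 78 alternative values, 59 stayed within the exact 95% interval of the share, 1.5 times the count or the SD between the replicate lists. The exact interval treats peaks as independent units, which was not tested. The SD, used for the signal ratio and the distance, comes from the 2 single-replicate lists, which are themselves among the alternatives. Most settings also reuse the same peaks, so the count of 59 describes these settings and does not measure stability. The 2022 strongest peaks held 193 intergenic ones, a share of 9.54%, with 98.96% in both replicates. The intergenic share was 13.6% with protein-coding genes only, 14.2% with a TSS limit of 250 bp and 8.405% with 1000 bp. The median distance to a protein-coding TSS became 3975, 2175 and 4998 bp under these, 3619 bp in the 2022 strongest and 4110 bp with whole peaks outside gene bodies. It was 3884 to 3907 bp with 1 replicate left out, and the signal ratio 0.846 to 0.950. Divergent gaps held 33.5% with protein-coding genes only. In windows of 400 bp, the PAR bZIP share was 2.52% and the GAGA share 46.3%. In windows of 100 bp, the GAGA share was 9.86% and that of the 10-letter word 1.38%. The settings for that word were chosen after seeing the data. Of the intergenic peaks, 1 lay in an interval listed more than once. No paired analysis was possible because there is only 1 group. Unknown depth limits what the weak peaks can show.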
